A study of Xenopus laevis with 27 samples.

Results

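The Brachyury, Wnt, FGF, Sp and caudal genes tbxt, wnt8a, fgf20, sp5l, cdx1 and cdx4 of the frog Xenopus laevis were followed through 3 embryonic stages. The embryos had been injected with an activator or a suppressor of Notch signaling, or with a control. All probe sets of the array whose platform symbol, without the ending .L or .S, was one of these 6 names were taken, which gave 12 of 32635 probe sets and 7 of 11303 symbols. The genome of this frog is tetraploid, and .L and .S tell its 2 gene copies apart. The members were tbxt.L (Entrez 432248), tbxt.S (399275), wnt8a.L (397970), fgf20.L (399105), sp5l.S (398277), cdx1.S (397695) and cdx4.L (380412). sp5l.S and cdx1.S had 3 probe sets each, cdx4.L had 2, and every other symbol had 1. Probe sets of 1 gene share their target transcript and are not replicates of each other.

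As background, the posterior end of the vertebrate embryo grows from the tailbud, a zone of progenitors kept by secreted Wnt and FGF proteins. Both signals keep tbxt active, the T-box transcription factor also known as Brachyury, which is needed for mesoderm of the trunk and tail. Caudal (Cdx) homeodomain factors are switched on by the same signals and activate Hox genes of the posterior body. Notch is the receptor system through which neighbouring cells signal to each other, and it is known in this region for pacing the segmentation of the presomitic mesoderm, the tissue that forms somites.

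The arrays measured RNA from pools of 10 whole embryos. Each embryo had received 1.5 ng of capped RNA in 1 of its first 2 cells, so that the other side carried no injected RNA. GFP, the green fluorescent protein, was the tracer and injection control. DBM is a mutant of Suppressor of Hairless that cannot bind DNA and suppresses Notch signaling, and NICD (named ICD in the sample labels) is the intracellular domain of Notch, which activates the pathway. The series' design text adds GFP to the DBM and NICD injections, whereas the injection protocol names 1 construct per embryo. Embryos were harvested at stage 18 (neurula), stage 28 (tailbud) or stage 38 (tadpole), which gave 9 groups of 3 arrays. The labels call these 3 arrays biological replicates and give them numbers 1 to 3. RNA of a whole pool mixes the injected with the uninjected side and the tailbud with all other tissues.

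Array medians were 6.83 to 6.99 on the log2 scale of the deposited RMA values, and the number of arrays, not a read depth, limits the precision. At stage 18, replicate 1 of every construct stood apart from replicates 2 and 3, with a root mean square difference over all probe sets of 0.422 to 0.44 against 0.179 to 0.195 between replicates 2 and 3. The headers of the authors' second table carry 2 different number codes at this stage. The columns matched to replicates 2 and 3 share 1 code, and the other was taken to be that of replicate 1. What the codes stand for is not stated. Direct Notch targets, the hes, hey, esr and nrarp genes, were read beside the labels. This list was chosen with earlier results of these data known, so it is no independent check. Of their 26 probe sets, 14 were higher with NICD at stage 18 (0.876% of all probe sets), 6 at stage 28 (0.414%) and 1 at stage 38 (0.0613%). Among them were hes5.1.S by 3.14 ± 0.20 (SE) and hey1.S by 2.32 ± 0.12 at stage 18. The median difference of the 26 with NICD was 1.09 at stage 18, 0.65 at stage 28 and 0.19 at stage 38. With DBM, 0 of the 26 passed limma's test at any stage. When the replicate number within a stage was a block, 4 at stage 28 passed as lower (0.374% of all probe sets). Their median difference with DBM was 0.15 at stage 18, -0.17 at stage 28 and -0.17 at stage 38. Of the 26, 20, 7 and 3 lay above 0, beside 49.5%, 47.2% and 47.9% of all probe sets. These targets were thus not seen to be lower with DBM at stage 18, and do not check its label there.

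In GFP embryos, all 6 genes were at their highest at stage 18 and had fallen by stage 28. The 12 probe sets fell by 1.53 for fgf20.L to 4.16 for the cdx1.S probe set Xl2.34367.1.A1_at on the log2 scale, which is 2.9-fold to 17.8-fold. Each of the 12 was lower by limma at a Benjamini-Hochberg adjusted p below 0.05 over all probe sets, the threshold for every call here, where 29.4% of all probe sets were lower. In RNA of whole embryos, fewer tailbud cells and less RNA per cell cannot be told apart. Between stage 28 and stage 38, 11 of 12 fell again, against 22.4% of all probe sets. The largest of these falls were those of cdx4.L (probe set Xl2.26888.1.S2_at), which fell by 3.98 on the log2 scale, and of sp5l.S (Xl2.2755.1.S1_a_at), which fell by 3.54. Over both intervals this sp5l.S probe set fell by 7.08 on the log2 scale, to values below the lowest array median. The exception was cdx1.S probe set Xl2.1358.1.S1_at, at 0.11 ± 0.14 (SE, adjusted p = 0.562). By stage 38, the 108 values of the 12 probe sets lay between 4.03 and 7.16, and 10 of the 12 had every value below the lowest array median.

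**Figure D1:**
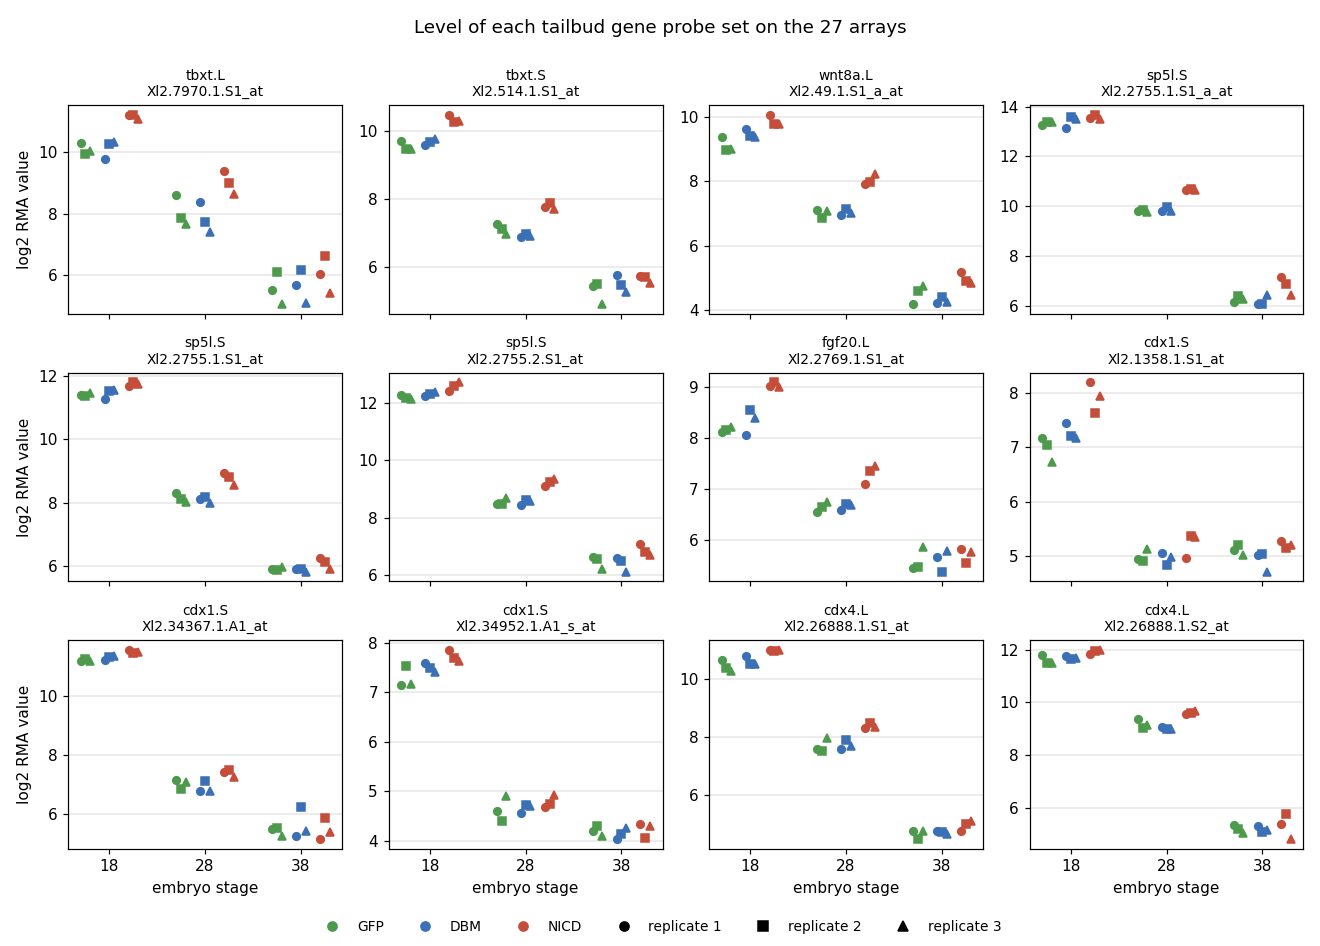
Deposited log2 RMA values (vertical axis, a scale of its own in each panel) of the 12 probe sets against embryo stage (horizontal axis), 1 point per array, coloured by construct and shaped by replicate number. All 12 probe sets were lower at stage 28 than at stage 18 in GFP embryos, and at stage 18 the 3 NICD arrays sat above the 3 GFP arrays in every panel.

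The 3 cdx1.S probe sets disagreed on the size of the falls. Between stages 18 and 28 in GFP embryos they fell by 1.99 (Xl2.1358.1.S1_at), 4.16 (Xl2.34367.1.A1_at) and 2.65 (Xl2.34952.1.A1_s_at). Between stages 28 and 38 they changed by 0.11, -1.60 and -0.44. The smallest of these called falls, -0.44 (adjusted p = 0.00614), was no longer called without GFP replicate 3 of stage 28, where the adjusted p was 0.0608. The ending s_at marks a probe set that the manufacturer states can match several transcripts.

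NICD embryos had more RNA than GFP embryos for several of these genes at stages 18 and 28. At stage 18, 5 of 12 probe sets (fgf20.L, wnt8a.L, tbxt.S, 1 of cdx1.S and 1 of cdx4.L) rose, against 0.876% of all probe sets called higher. At stage 28, 7 of 12 rose (wnt8a.L, all 3 of sp5l.S, fgf20.L, tbxt.S and 1 of cdx4.L), against 0.414%. At stage 38, 0 of 12 passed, where 0.0613% of all probe sets were called higher, and 5 of 12 had an unadjusted limma p below 0.05 (3.3% of all). The median difference over the 12 was 0.51 at stage 18, 0.66 at stage 28 and 0.24 at stage 38, beside 0.01 at the first 2 stages and 8e-04 at stage 38 over all probe sets. The 6 genes were chosen with earlier results of these data known, so these counts describe the chosen genes.

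Non-overlap of the arrays gave a count without a model. At stage 18 the 3 NICD arrays lay above the 3 GFP arrays in 12 of 12 probe sets, where 7.92% of all probe sets did so. At stage 28 this held for 10 of 12 (8.39% of all) and at stage 38 for 5 of 12 (4.48% of all). Arrays of the same stage and number deviated together from their group means. At stage 18 some arrays of different numbers did so too, at a correlation of up to 0.573. NICD was also set against GFP by number. The difference was above 0 in 36 of 36 such pairs at stage 18, in 36 of 36 at stage 28 and in 30 of 36 at stage 38. For probe sets whose arrays did not overlap, 12 of 12 at stage 18 and 10 of 12 at stage 28, this follows from the non-overlap. The 12 probe sets share the same 3 pairs of arrays at each stage, so the 36 are not separate pairs of pools. The share over all probe sets was not counted for these pairs. With the number within each stage as a block, 9 of 12 probe sets were called higher at stage 18 (6.16% of all probe sets), 8 at stage 28 (3.01%) and 1 at stage 38 (0.545%). At stage 18, 6 of 12 were called with the header code as a block (2.2% of all probe sets) and 6 without replicate 1 (2.38% of all).

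**Figure D2:**
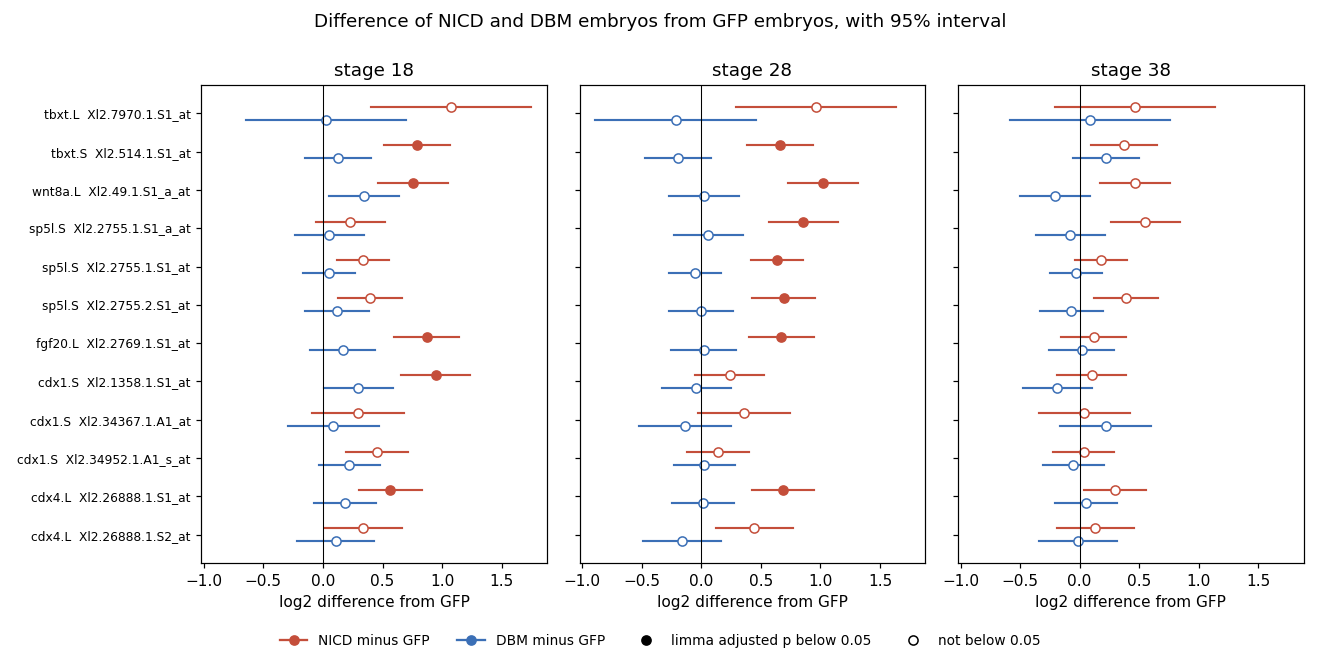
Log2 difference of NICD (red) and DBM (blue) embryos from GFP embryos of the same stage (horizontal axis) for the 12 probe sets (vertical axis), with the 95% interval of the limma model without a block. Filled points had an adjusted p below 0.05, which were 5 of the 12 NICD differences at stage 18, 7 at stage 28 and 0 at stage 38, and 0 of the DBM differences.

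Among the ligands, wnt8a.L encodes a secreted Wnt protein made in posterior and ventrolateral mesoderm. At stage 18 its probe set Xl2.49.1.S1_a_at read 9.38, 8.96 and 9.01 on the GFP arrays 1 to 3, 9.62, 9.40 and 9.37 with DBM and 10.07, 9.77 and 9.77 with NICD. At stage 28 the values were 7.1, 6.85 and 7.09 with GFP, 6.94, 7.13 and 7.03 with DBM and 7.92, 7.97 and 8.22 with NICD. The NICD arrays stood above the other 6 at both stages, and DBM and GFP overlapped. NICD minus GFP was 0.75 ± 0.14 (SE, adjusted p = 0.00617) at stage 18 and 1.02 ± 0.14 (adjusted p = 0.0018) at stage 28, a 2.03-fold difference. The stage 28 call remained when any single array was left out, while the stage 18 call was lost without GFP replicate 2 (adjusted p = 0.0523). At stage 38 the levels were 4.19, 4.59 and 4.76 with GFP, 4.24, 4.42 and 4.26 with DBM and 5.17, 4.92 and 4.84 with NICD. The NICD arrays were again the highest, but the difference of 0.46 ± 0.14 did not pass (adjusted p = 0.534), and by number it was 0.98, 0.32 and 0.08.

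fgf20.L encodes a secreted FGF ligand. At stage 18 its probe set Xl2.2769.1.S1_at read 8.11, 8.16 and 8.22 with GFP, 8.05, 8.55 and 8.40 with DBM and 9.01, 9.10 and 9.01 with NICD. The 3 NICD arrays differed by less than 0.10 from each other and lay above all others. The difference from GFP was 0.87 ± 0.13 (SE, adjusted p = 0.000747), 1.83-fold, and it stayed called without any single array. At stage 28 the values were 6.54, 6.63 and 6.73 with GFP, 6.58, 6.69 and 6.69 with DBM and 7.1, 7.36 and 7.45 with NICD, so that NICD was highest again. This difference of 0.67 ± 0.13 (adjusted p = 0.0198) was lost without GFP replicate 1 (0.0977) or 2 (0.0924) or NICD replicate 2 (0.103) or 3 (0.123). At stage 38 the levels were 5.43, 5.45 and 5.86 with GFP, 5.66, 5.37 and 5.77 with DBM and 5.81, 5.54 and 5.75 with NICD, and the 3 groups overlapped.

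sp5l.S encodes an Sp-family zinc finger transcription factor, whose zebrafish counterpart acts downstream of Wnt signaling. Its probe set Xl2.2755.1.S1_a_at read 13.27, 13.37 and 13.38 with GFP, 13.14, 13.57 and 13.48 with DBM and 13.55, 13.68 and 13.49 with NICD at stage 18. The NICD arrays overlapped with DBM there and lay narrowly above GFP, by 0.23 ± 0.14 (SE, adjusted p = 0.521). At stage 28 the same probe set was at 9.79, 9.86 and 9.76 with GFP, 9.82, 9.95 and 9.82 with DBM and 10.63, 10.69 and 10.66 with NICD. The separation was wide at this stage, 0.86 ± 0.14 (1.81-fold, adjusted p = 0.00611), and the call remained without any single array. At stage 38 it was at 6.13, 6.39 and 6.28 with GFP, 6.06, 6.06 and 6.43 with DBM and 7.16, 6.87 and 6.43 with NICD. NICD lay above GFP by 0.55 ± 0.14, which did not pass (adjusted p = 0.229), and the difference by number was 1.03, 0.48 and 0.14.

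The other probe sets of sp5l.S gave the same order at stage 28. Xl2.2755.1.S1_at went from 8.29, 8.10 and 8.01 with GFP to 8.95, 8.81 and 8.56 with NICD, beside 8.10, 8.18 and 7.98 with DBM. Xl2.2755.2.S1_at went from 8.46, 8.49 and 8.67 to 9.10, 9.25 and 9.33, beside 8.42, 8.62 and 8.57 with DBM. NICD was the highest group in both, by 0.64 ± 0.11 (SE, adjusted p = 0.00617) and 0.69 ± 0.13 (adjusted p = 0.015). The former call was lost without NICD replicate 2 (0.0529), the latter without GFP replicate 1 (0.0736) or 2 (0.086) or NICD replicate 2 (0.0715) or 3 (0.089).

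At stage 18 these 2 probe sets showed smaller NICD differences. Xl2.2755.1.S1_at was at 11.40, 11.37 and 11.46 with GFP, 11.28, 11.52 and 11.58 with DBM and 11.68, 11.81 and 11.74 with NICD. Xl2.2755.2.S1_at was at 12.28, 12.18 and 12.14 with GFP, 12.23, 12.31 and 12.39 with DBM and 12.43, 12.62 and 12.73 with NICD. NICD lay above GFP without overlap in both, by 0.33 ± 0.11 (adjusted p = 0.124) and 0.40 ± 0.13 (adjusted p = 0.135). Neither was called, and both were with the number within each stage as a block (adjusted p = 0.0119 and 0.00331). At stage 38 Xl2.2755.1.S1_at was at 5.89, 5.86 and 5.95 with GFP, 5.9, 5.9 and 5.81 with DBM and 6.24, 6.11 and 5.9 with NICD, and the groups overlapped. Xl2.2755.2.S1_at was at 6.62, 6.56 and 6.22 with GFP, 6.59, 6.48 and 6.11 with DBM and 7.08, 6.79 and 6.70 with NICD. Its difference of 0.39 ± 0.13 from GFP (adjusted p = 0.708) was the 1 call at this stage with the block (adjusted p = 0.0183).

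Brachyury was measured on both gene copies. The tbxt.S probe set Xl2.514.1.S1_at read 9.71, 9.45 and 9.48 with GFP, 9.58, 9.68 and 9.75 with DBM and 10.47, 10.25 and 10.28 with NICD at stage 18. At stage 28 it read 7.25, 7.13 and 6.98 with GFP, 6.89, 6.96 and 6.92 with DBM and 7.77, 7.88 and 7.69 with NICD. NICD stood clear of the other groups at both stages. It exceeded GFP by 0.79 ± 0.13 (SE, 1.73-fold, adjusted p = 0.0025) at stage 18, a call that remained without any single array, and by 0.66 ± 0.13 (adjusted p = 0.0224) at stage 28. The latter was lost without GFP replicate 2 (0.0941) or 3 (0.072) or NICD replicate 1 (0.0584), 2 (0.125) or 3 (0.0719). At stage 38 tbxt.S was at 5.43, 5.49 and 4.91 with GFP, 5.77, 5.47 and 5.27 with DBM and 5.73, 5.69 and 5.53 with NICD, where NICD overlapped with DBM and lay 0.37 ± 0.13 above GFP (adjusted p = 0.89).

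The tbxt.L probe set Xl2.7970.1.S1_at had the widest spread of the 12. At stage 18 it read 10.29, 9.95 and 10.04 with GFP, 9.78, 10.25 and 10.33 with DBM and 11.20, 11.22 and 11.08 with NICD. At stage 28 it read 8.62, 7.85 and 7.67 with GFP, 8.37, 7.71 and 7.41 with DBM and 9.40, 9.01 and 8.63 with NICD. At stage 38 it read 5.53, 6.09 and 5.06 with GFP, 5.68, 6.16 and 5.11 with DBM and 6.03, 6.61 and 5.44 with NICD. At stages 28 and 38, arrays of the same number were high or low together in all 3 constructs, replicate 1 highest at stage 28 and replicate 2 highest at stage 38. The replicate number took a share of 0.912 of the variance around its group means, the pooled SD was 0.43, and for the other 11 the SD was 0.12 to 0.24. Its NICD difference of 1.07 ± 0.32 (SE) at stage 18, 2.1-fold, did not pass (adjusted p = 0.106), nor did 0.96 ± 0.32 at stage 28 (adjusted p = 0.249). With the number within each stage as a block they were called, at an adjusted p of 1.44e-05 and 9.11e-05. By number, the differences were 0.91, 1.27 and 1.04 at stage 18 and 0.78, 1.16 and 0.95 at stage 28.

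**Figure D3:**
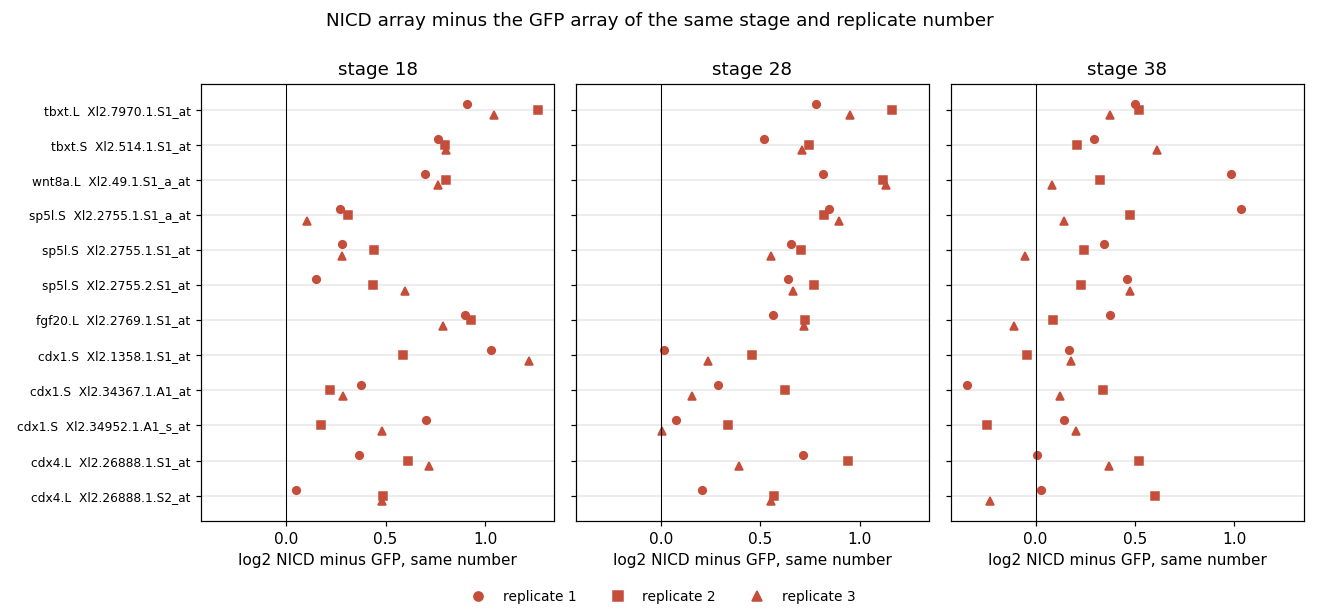
Log2 value of each NICD array minus the GFP array of the same stage and replicate number (horizontal axis) for the 12 probe sets (vertical axis), with shapes for replicates 1 to 3. The difference was above 0 in 36 of 36 pairs at stage 18, 36 of 36 at stage 28 and 30 of 36 at stage 38. The 12 probe sets share the same arrays, so these are not separate pairs of pools.

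The caudal gene cdx4.L, a homeodomain factor of the posterior body, was measured by 2 probe sets. Xl2.26888.1.S1_at read 10.65, 10.38 and 10.28 with GFP, 10.81, 10.52 and 10.54 with DBM and 11.02, 10.99 and 11.003 with NICD at stage 18. At stage 28 it read 7.61, 7.53 and 7.97 with GFP, 7.57, 7.90 and 7.68 with DBM and 8.32, 8.48 and 8.36 with NICD. The NICD arrays were above all others at both stages. The differences from GFP were 0.57 ± 0.13 (SE, adjusted p = 0.0215) and 0.68 ± 0.13 (adjusted p = 0.0146). The former was lost without GFP replicate 2 (0.103) or 3 (0.146) or any 1 of the NICD replicates (0.0544, 0.0603 and 0.0633). The latter was lost without GFP replicate 1 (0.0736) or 2 (0.0941) or NICD replicate 2 (0.0831) or 3 (0.0565). At stage 38 this probe set was at 4.75, 4.47 and 4.74 with GFP, 4.75, 4.73 and 4.65 with DBM and 4.76, 4.99 and 5.11 with NICD, all below the lowest array median.

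The probe set Xl2.26888.1.S2_at of cdx4.L gave smaller differences. It read 11.78, 11.47 and 11.51 with GFP, 11.74, 11.65 and 11.68 with DBM and 11.83, 11.96 and 11.99 with NICD at stage 18. At stage 28 it read 9.36, 9.03 and 9.12 with GFP, 9.07, 8.99 and 8.97 with DBM and 9.57, 9.60 and 9.68 with NICD. NICD lay above GFP without overlap, by 0.34 ± 0.16 (SE, adjusted p = 0.342) and 0.44 ± 0.16 (adjusted p = 0.283), and neither passed. At stage 38 it was at 5.36, 5.18 and 5.03 with GFP, 5.3, 5.08 and 5.14 with DBM and 5.39, 5.78 and 4.80 with NICD, with NICD both highest and lowest.

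For cdx1.S, the other caudal gene, the NICD difference was called at stage 18 on 1 of 3 probe sets and at stage 28 on none. Xl2.1358.1.S1_at read 7.17, 7.05 and 6.72 with GFP, 7.45, 7.21 and 7.18 with DBM and 8.20, 7.63 and 7.94 with NICD at stage 18. The 3 groups did not overlap, and NICD exceeded GFP by 0.95 ± 0.14 (SE, 1.93-fold, adjusted p = 0.000642), without loss of the call when any single array was left out. At stage 28 it had fallen to 4.95, 4.91 and 5.12 with GFP, 5.05, 4.83 and 4.98 with DBM and 4.97, 5.37 and 5.35 with NICD, and the ranges of NICD and GFP met. At stage 38 it was at 5.1, 5.19 and 5.02 with GFP, 5.02, 5.03 and 4.71 with DBM and 5.27, 5.15 and 5.2 with NICD. The difference from GFP was 0.24 ± 0.14 at stage 28 (adjusted p = 0.739) and 0.10 ± 0.14 at stage 38 (adjusted p = 1).

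The remaining cdx1.S probe sets were less separated. Xl2.34952.1.A1_s_at read 7.16, 7.53 and 7.16 with GFP, 7.61, 7.49 and 7.42 with DBM and 7.86, 7.70 and 7.65 with NICD at stage 18. NICD exceeded GFP by 0.45 ± 0.12 (SE, adjusted p = 0.069), which was called with the number within each stage as a block (adjusted p = 0.0119). Xl2.34367.1.A1_at read 11.17, 11.23 and 11.18 with GFP, 11.22, 11.29 and 11.33 with DBM and 11.55, 11.45 and 11.46 with NICD, a difference of 0.29 ± 0.18 from GFP (adjusted p = 0.537). NICD was highest in both at this stage. At stage 28 Xl2.34952.1.A1_s_at was at 4.6, 4.40 and 4.91 with GFP, 4.56, 4.73 and 4.71 with DBM and 4.68, 4.73 and 4.92 with NICD. Xl2.34367.1.A1_at was at 7.15, 6.87 and 7.09 with GFP, 6.79, 7.13 and 6.79 with DBM and 7.44, 7.49 and 7.25 with NICD. NICD exceeded GFP by 0.14 ± 0.12 and 0.36 ± 0.18 there, neither of which passed (adjusted p = 0.927 and 0.645). At stage 38 the values were 4.20, 4.29 and 4.09 with GFP, 4.03, 4.14 and 4.26 with DBM and 4.34, 4.05 and 4.29 with NICD for the former. For the latter they were 5.5, 5.53 and 5.28 with GFP, 5.27, 6.25 and 5.45 with DBM and 5.16, 5.87 and 5.4 with NICD. The groups overlapped in both.

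Whether the NICD difference changed between stages was tested as an interaction. From stage 18 to stage 28, 0 of 12 probe sets passed by limma, with 2 of 12 at an unadjusted p below 0.05 (7.41% of all probe sets) and 0.0981% of all probe sets called. The 2 probe sets were cdx1.S Xl2.1358.1.S1_at, whose NICD difference fell by 0.71 ± 0.20 (SE, adjusted p = 0.265), and sp5l.S Xl2.2755.1.S1_a_at, at 0.63 ± 0.20 (adjusted p = 0.353). With the number within each stage as a block the former was called (adjusted p = 0.0237, 3.18% of all probe sets), as it was with array weights. All stage 28 values of this cdx1.S probe set, 4.83 to 5.37, lay below the lowest array median. Of the other cdx1.S probe sets, Xl2.34367.1.A1_at had no smaller NICD difference at stage 28 than at stage 18. Xl2.34952.1.A1_s_at had a smaller one, with its stage 28 values also below that median. The part of the low level in this change was not tested. From stage 28 to stage 38, all 12 NICD differences were smaller, with a median change of -0.32, where the change was above 0 in 48.6% of all probe sets. Of the 12 changes, 0 passed (0.00306% of all probe sets), with 4 of 12 at an unadjusted p below 0.05 (3.14% of all). At stage 38, 10 of the 12 probe sets had every value below the lowest array median. Except for that cdx1.S probe set in these 2 alternative fits, a difference called at one of these stages and not at another is therefore not shown to differ between them.

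No difference between DBM and GFP embryos was called for the 6 genes. DBM passed limma's test in 0 of 12 probe sets at each stage, with 2, 0 and 0 of 12 at an unadjusted p below 0.05 at stages 18, 28 and 38. Over all probe sets, 0% were called at stage 18, 0.107% at stage 28 and 0.0123% at stage 38, and an unadjusted p below 0.05 was found for 4.73%, 6.78% and 1.95%. The count stayed 0 with the number within each stage as a block, where 0.236%, 1.94% and 0.11% of all probe sets were called. The median difference over the 12 was 0.12, -0.02 and -0.02. At stage 18 all 12 differences were above 0, beside 49.5% of all probe sets, the highest for wnt8a.L at 0.34 ± 0.14 (SE) and cdx1.S Xl2.1358.1.S1_at at 0.30 ± 0.14 (adjusted p = 0.9997 for both). For that cdx1.S probe set, all DBM arrays lay above all GFP arrays, by 0.01 at the closest, which was 1 of 12 probe sets against 4.21% of all. At stage 28 only tbxt.S separated, 1 of 12 against 6.53% of all probe sets, with DBM at 6.89, 6.96 and 6.92 below GFP at 7.25, 7.13 and 6.98, a difference of -0.20 ± 0.13 (adjusted p = 0.933). The 95% intervals for DBM minus GFP reached from -0.65 to 0.70 over the 12 at stage 18, from -0.89 to 0.46 at stage 28 and from -0.58 to 0.76 at stage 38. The outer bounds belonged to tbxt.L. For tbxt.L, a change of such a size is therefore not shown to be absent. The intervals of the other probe sets were narrower, with a median SE of 0.14 over the 12. Smaller changes are not shown to be absent in them. The DBM and NICD differences share the GFP arrays of their stage.

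NICD set directly against DBM does not use the GFP arrays. NICD was called higher than DBM at stage 18 in 3 of 12 probe sets (0.512% of all probe sets), at stage 28 in 8 of 12 (0.573%) and at stage 38 in 2 of 12 (0.159%). The calls at stage 18 were fgf20.L at 0.71 ± 0.13 (SE, adjusted p = 0.00734), tbxt.S at 0.66 ± 0.13 (0.0144) and cdx1.S Xl2.1358.1.S1_at at 0.65 ± 0.14 (0.0248). At stage 28 they were wnt8a.L at 1.002 ± 0.14 (0.000294), tbxt.S at 0.85 ± 0.13 (0.000757), fgf20.L at 0.65 ± 0.13 (0.00765), the 3 sp5l.S probe sets at 0.80, 0.69 and 0.69, and both of cdx4.L at 0.67 and 0.61. At stage 38 they were wnt8a.L at 0.67 ± 0.14 (0.025) and sp5l.S Xl2.2755.1.S1_a_at at 0.63 ± 0.14 (0.0355). With the number within each stage as a block the counts were 6, 10 and 3 (2.7%, 2.63% and 1.05% of all probe sets). Those added were tbxt.L at stages 18 and 28 (adjusted p = 3.07e-05 and 6.47e-06), sp5l.S Xl2.2755.1.S1_at and Xl2.2755.2.S1_at at stage 18 (0.0471 and 0.0473), cdx1.S Xl2.34367.1.A1_at at stage 28 (0.0284) and sp5l.S Xl2.2755.2.S1_at at stage 38 (0.00249).

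Several of these calls were lost when 1 array was left out. At stage 18, 1 of 12 was left without NICD replicate 1 or DBM replicate 2: tbxt.S was lost without DBM replicate 1 (0.0597) or 2 (0.0512) or NICD replicate 1 (0.0773). The cdx1.S call was lost without NICD replicate 1 (0.137) or 3 (0.0854) or DBM replicate 2 (0.112) or 3 (0.127), and fgf20.L was kept under each removal. At stage 28, cdx4.L Xl2.26888.1.S2_at was lost without any 1 of the 6 arrays (0.096 to 0.196) and fgf20.L without NICD replicate 2 (0.0504) or 3 (0.0681). The other 6 calls of stage 28 were kept under each removal of 1 array. At stage 38, wnt8a.L was lost without DBM replicate 1 (0.103) or 3 (0.116) or NICD replicate 1 (0.219) or 2 (0.0691), and sp5l.S without DBM replicate 1 (0.168) or 2 (0.168) or NICD replicate 1 (0.343) or 2 (0.139).

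Over the 9 groups, the levels of each probe set formed steps. Within a stage, NICD had the highest mean in 12 of 12 probe sets at stages 18 and 28 and in 11 of 12 at stage 38. DBM and GFP overlapped in 11 of 12 at stage 18, 11 of 12 at stage 28 and 12 of 12 at stage 38. Over all probe sets, all DBM arrays lay above all GFP arrays in 4.21%, 6.92% and 2.89% at the 3 stages. They lay below all GFP arrays in 4.65%, 6.53% and 3.28%. Overlap of DBM and GFP was thus common over the whole array and is not particular to these genes. For wnt8a.L the order ran NICD, DBM, GFP of stage 18, then NICD, DBM, GFP of stage 28, then NICD, GFP, DBM of stage 38, with every NICD group clear of the next group in order and each stage clear of the next. The same NICD gaps held for cdx4.L Xl2.26888.1.S1_at and for sp5l.S Xl2.2755.2.S1_at. For cdx1.S Xl2.1358.1.S1_at the order ended after stage 18, since the 6 groups of stages 28 and 38 overlapped as neighbours. For tbxt.L, the 3 groups of stage 38 overlapped from 5.06 to 6.61.

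Other genes followed these patterns. Each gene was represented by its probe set with the widest range over the groups, which was Xl2.2755.1.S1_a_at for sp5l.S, Xl2.34367.1.A1_at for cdx1.S and Xl2.26888.1.S2_at for cdx4.L. The NICD difference from GFP of the latter 2 probe sets was not called at any stage. After subtracting the mean of each stage, the probe sets with 1 symbol most like wnt8a.L over the 27 arrays were pnhd.L (r = 0.92), a secreted protein of the posterior mesoderm, and nkx6-2.L (0.88). For fgf20.L they were nrarp.S (0.90), a Notch feedback gene, and tp63.L (0.88). For sp5l.S they were hoxc10.L, a posterior homeobox gene, and post.L (0.86 each). tbxt.S was nearest to XB5776174.S (0.88) and bmp3.L (0.83), and tbxt.L to slc7a3.L (0.83) and habp4.L (0.82). The cdx1.S probe set Xl2.34367.1.A1_at was nearest to serpina3.L (0.81) and septin6.S (0.74), and the cdx4.L probe set Xl2.26888.1.S2_at to gadd45a.S (0.79) and sp5.L (0.77). Over the 9 group means, fgf20.L was most like fgf3.L and wnt8a.L most like hes7.2.L, both at 0.999, but 1852 and 1935 of 15493 other probe sets exceeded 0.95 there, since the fall with stage is common. The partners by that measure were pou2f1.S for tbxt.L, c21orf91.L for tbxt.S, post.L for sp5l.S, esco2.S for cdx1.S and rhebl1.S for cdx4.L. These correlations are descriptions over the same 27 arrays, of which those of the same stage and number deviated together. The deviations of the 12 probe sets from their group means, over the 27 arrays, correlated at 0.58 between tbxt.L and tbxt.S. Between probe sets of 1 gene the correlations were 0.49, 0.07 and 0.10 for sp5l.S, 0.35, 0.03 and -0.02 for cdx1.S, and -0.02 for cdx4.L, so that most of them shared little of their deviations.

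Close relatives outside the 6 names were also measured. cdx2.L, the remaining caudal gene, was at -0.06 ± 0.13 (SE) from GFP at stage 18 and 0.23 ± 0.13 at stage 28, and the Brachyury copy tbxt.2.S at -0.05 and 0.08 ± 0.18. sp5.L, of the Sp family, was at 0.32 ± 0.12 and 0.25 (adjusted p = 0.217 and 0.564), and with the number within each stage as a block it was called at stage 18 (adjusted p = 0.0134). sp5.S was at 0.09 and 0.25 ± 0.17, and wnt8b.S, a Wnt ligand of the same family as wnt8a, at 0.30 and 0.23 ± 0.16. None was called without a block.

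Other genes of the same pathways were read from lists without the 12 probe sets. Of 36 probe sets of the Wnt list (tailbud ligands, feedback and target genes), 1 rose with NICD at stage 18, kremen2.S, a co-receptor of Wnt inhibitors, by 1.17 ± 0.20 (SE, adjusted p = 0.0034), and 0 fell. At stage 28, 2 rose, wnt3a.S, the tailbud Wnt ligand, by 0.79 ± 0.17 (adjusted p = 0.0338) and the Wnt inhibitor apcdd1.L by 0.36 ± 0.08 (0.0456). Of all probe sets, 0.876% and 0.414% were called higher at these stages. The median over the list was 0.12 at stage 18 and 0.32 at stage 28. With the number within each stage as a block, 11 and 17 of the 36 were called higher and 0 lower, where 6.16% and 3.01% of all probe sets were higher.

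Of 37 probe sets of the FGF list (ligands, receptors and feedback genes), 5 rose at stage 18 and 1 at stage 28, and 0 fell. The leading genes were the ligand fgf3.L, by 0.60 ± 0.11 (SE, adjusted p = 0.004) and 0.51 ± 0.11 (0.0264) at the 2 stages, and at stage 18 the ligand fgf10.S by 0.90 ± 0.19 (0.013) and the feedback inhibitor spred1.L by 0.70 ± 0.15 (0.0179). Of all probe sets, 0.876% and 0.414% were called higher at these stages. The medians were 0.20 and 0.23. With the block, 11 were called higher at stage 18 (6.16% of all probe sets). At stage 28, 6 were higher (3.01% of all) and 1 lower (3.18%).

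Posterior Hox genes, which caudal factors activate, had 4 of 27 probe sets higher at stage 18 and 8 of 27 at stage 28, with 0 lower. Of all probe sets, 0.876% and 0.414% were higher at these stages. hoxa7.L rose by 0.52 ± 0.10 (SE, adjusted p = 0.0093) and 0.76 ± 0.10 (0.0018), and hoxa11.S by 0.37 ± 0.08 (0.0232) on probe set Xl2.266.2.A1_at and 0.64 ± 0.12 (0.0146) on Xl2.266.1.S1_a_at. hoxb9 rose by 0.57 ± 0.13 (0.0323) at stage 18 and hoxd11.L by 0.56 ± 0.09 (0.006) at stage 28. The median was 0.26 at stage 18 and 0.44 at stage 28. With the block, 12 and 18 of 27 were called higher (6.16% and 3.01% of all probe sets).

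Of 61 probe sets of other caudal, T-box and posterior regulators, 2 rose and 2 fell at stage 18, and 7 rose and 0 fell at stage 28. Of all probe sets, 0.876% and 0.414% were higher at these stages, and 0.732% and 0.236% lower. The T-box gene vegt rose at stage 18 on both copies, vegt.S by 0.86 ± 0.13 (SE, adjusted p = 0.00075) and vegt.L by 0.83 ± 0.14 (0.0015). The copies of szl (sizzled), a secreted regulator of BMP signaling in the ventral region, fell by 1.41 ± 0.20 (szl.S, 0.00036) and 1.22 ± 0.23 (szl.L, 0.0063). At stage 28 msgn1.S, a regulator of presomitic mesoderm, rose by 0.90 ± 0.12 (0.0018), msgn1.L by 0.80 ± 0.16 (0.0196) and the T-box gene tbx6.L by 0.89 ± 0.18 (0.021). msgn1.L was also the 1 call of this list at stage 38, at 0.94 ± 0.16 (0.0142). The medians at stages 18 and 28 were 0.06 and 0.22, and with the block 9 rose and 3 fell, then 16 rose and 3 fell. Of all probe sets, 6.16% and 3.01% were higher and 7.08% and 3.18% lower with the block at stages 18 and 28. With DBM, 0 probe sets of these 4 lists passed at any stage. With the block, 1 of the FGF list was higher at stage 18 (0.144% of all probe sets). At stage 28, 1 of the Wnt list and 2 Hox probe sets were higher (1.57% of all).

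**Figure D4:**
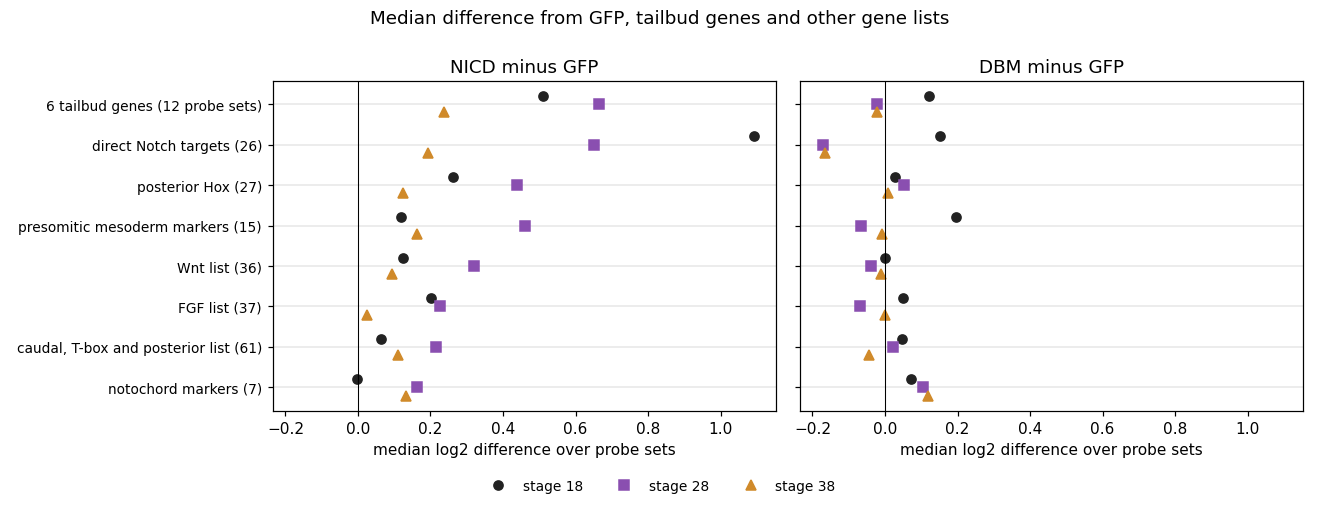
Median log2 difference from GFP (horizontal axis) over the probe sets of the 6 tailbud genes and of other gene lists (vertical axis, number of probe sets in brackets), for NICD on the left and DBM on the right, by stage. With NICD the tailbud genes had medians of 0.51, 0.66 and 0.24 at stages 18, 28 and 38, and with DBM of 0.12, -0.02 and -0.02.

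Markers of the tissues that normally express these genes moved in part with them. Of 15 presomitic mesoderm probe sets, 2 were higher with NICD at stage 18 (mespb.L by 0.82 and 1 of fgf8.L by 0.63), 4 at stage 28 and 1 at stage 38. Of all probe sets, 0.876%, 0.414% and 0.0613% were higher at these stages. These markers share msgn1 and tbx6, among others, with the list of caudal, T-box and posterior regulators, and fgf8 with the FGF list. The msgn1.S, msgn1.L and tbx6.L calls at stage 28 and the msgn1.L call at stage 38 are those already given above. At stage 18 the median difference of the 15 from GFP was 0.12 with NICD and 0.20 with DBM, and that of NICD from DBM was -0.05. The summed level of the 15 probe sets, as log2 of summed linear values, was 13.41 to 13.65 with GFP at stage 18. It was 13.57 to 13.59 with NICD and 13.51 to 13.71 with DBM. At stage 28 it was 12.18 to 12.28 with GFP and 12.47 to 12.52 with NICD, without overlap, and 12.21 to 12.26 with DBM. Of 7 notochord probe sets, the other main site of tbxt, 1 was higher at stage 18, shh.L by 0.64, and 0 at stage 28. Their summed level at stage 28 was 11.66 to 11.78 with GFP, 11.80 to 11.93 with NICD and 11.91 to 12.08 with DBM, so that both constructs lay above GFP. With the number within each stage as a block, 3, 8 and 3 of the 15 presomitic mesoderm probe sets were called higher with NICD at stages 18, 28 and 38, and 1, 2 and 0 of the 7 notochord ones. Of all probe sets, 6.16%, 3.01% and 0.545% were higher with this block. The part of these and other tissues in the differences of the 6 genes was not tested.

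Markers of other tissues showed that the pools were whole embryos, with skeletal muscle (16 probe sets) at summed levels of 15.85 to 17.58 and epidermis (9) at 16.48 to 17.24. Of the muscle, heart (8 probe sets) and liver and gut (5) markers, 0 passed with NICD at stages 18 and 28. Of 14 neural probe sets, neurog2.S was lower at stage 18 by -0.60, and of 9 epidermal ones tp63.L was higher at both stages, by 0.54 and 0.49. Of 8 blood probe sets, hbd.S was lower at stage 28 by -2.36. Of 11 lens and eye probe sets, rax.L was lower at stage 18 by -0.71, and crybb1.L, crybb1.S and cryba1.L at stage 28 by -1.92, -1.19 and -1.18. The summed blood level at stage 28 was 9.80 to 10.48 with GFP and 8.39 to 9.21 with NICD, and that of liver and gut 9.74 to 10.16 with GFP and 8.50 to 9.56 with NICD. More of these markers were called with NICD when the number within each stage was a block. At stage 18 these were 6 lens and eye, 3 muscle, 2 neural and 2 epidermal probe sets as lower and 1 epidermal as higher. At stage 28, 3 liver and gut, 3 lens and eye, 2 blood and 1 heart probe sets were lower, and 4 neural, 3 muscle and 2 epidermal ones higher. At stage 38, 4 lens and eye and 1 blood probe set were lower. With this block, 7.08%, 3.18% and 0.668% of all probe sets were lower at stages 18, 28 and 38. Higher were 6.16% at stage 18 and 3.01% at stage 28. Without it, 0.732% and 0.236% were lower and 0.876% and 0.414% higher at stages 18 and 28. The counts in these short lists were not tested against those shares. With DBM, 0 probe sets of the 9 marker lists passed at any stage, and with that block 2 muscle probe sets, both of the muscle regulator myod1, were higher at stage 28.

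Since the 6 genes fall with age, the other genes that do so are of interest beside them. Among 12089 probe sets lower at stage 38 than at stage 18 in GFP embryos, 66.5% lay higher with NICD than with GFP at stage 28, with a median difference of 0.06, and 0.844% were called higher. Among 8758 that were higher at stage 38, 34.3% lay above GFP, with a median of -0.07, and 0.24% were called higher. At stage 18, among 7304 probe sets that fell from stage 28 to stage 38, 47.9% lay above GFP, with a median of -0.01, and 1.37% were called higher. The GFP arrays of each stage comparison differ from those of the NICD comparison beside it. The medians of the 12 probe sets at stages 18 and 28 were 0.51 and 0.66. Whether NICD embryos differed in developmental progress from GFP embryos of the same labelled stage was not tested.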

How the data were processed

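RNA of 27 pools was hybridized to Affymetrix Xenopus laevis 2.0 arrays (3' IVT labeling). The authors summarized the arrays by RMA, and the deposited log2 values were used unchanged. In the authors' second table, 6 columns matched arrays by name and differed by at most 0 from these values. Its other 21 log2 columns, and its adjusted p-values of the authors' comparisons, were not used. Groups and replicate numbers came from the sample titles.

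In limma 3.58.1 (R 4.3.3), 1 model with 9 groups was fitted to 27 arrays (lmFit, contrasts.fit, eBayes). P-values were adjusted by Benjamini-Hochberg over 32635 probe sets per comparison, and a call was an adjusted p below 0.05. The 15 comparisons were NICD or DBM against GFP, GFP between stages, NICD against DBM, and interactions. After subtracting group means, arrays with the same stage and number correlated at 0.454 to 0.811 (27 pairs). Blocks on the number, over all stages or within each stage, were alternatives. Others were the arrays of the comparison alone, omission of each array or number, array weights and removal of dim probe sets. Further ones were eBayes with trend and robust together, a second quantile normalization, centring on the median and Benjamini-Yekutieli adjustment. The block on the header code was chosen after seeing the data. The fit was run on simulated data with planted differences and noise drawn independently for each array. The shared deviations of arrays of the same stage and number were not simulated, so that run does not bear on the choice of block.

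Symbols came from the platform annotation, updated through the RefSeq gene table of assembly 10.1 (15505 probe sets with 1 symbol). All probe sets of the 6 names are reported, with the 3 genes of lowest p per list and direction, and per gene the 2 most alike over arrays and the 1 most alike over group means. The 5 lists (Wnt, FGF, caudal and T-box, Hox, direct Notch targets), the 9 marker lists and the 6 genes themselves were chosen with earlier results of these data known. The lists were not tested as sets.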

Additional observations from a re-analysis of the deposited data

How the results depend on the processing

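The alternatives were read for the 61 differences of the 12 probe sets that were called without a block or with either one. Of their 1163 alternative values, 0 reversed, 996 kept their side of the threshold, 136 lost the call and 31 gained one. Blocks and Benjamini-Yekutieli adjustment leave the difference itself unchanged, so a reversal could not arise there. The 61 include the falls of GFP embryos between stages. Of these, only cdx1.S Xl2.34952.1.A1_s_at between stages 28 and 38 lost its call, in 3 of 17 alternatives. Calls of NICD against GFP were lost in from 2 of 19 alternatives (cdx1.S at stage 18) to 10 of 20 (cdx4.L at stage 18). Counts of calls did depend on the processing. The share of all probe sets called was counted only for the blocks and for stage 18 without replicate 1. The other counts stand without that share, so a fit that calls more or fewer probe sets everywhere cannot be told apart. For NICD against GFP at stage 18 (5 of 12), the replicate block within stage gave 9, array weights 10, Benjamini-Yekutieli adjustment 3 and the 6 arrays compared alone 0, or 5 with the block. At stage 28 (7), Benjamini-Yekutieli gave 1 and the 6 arrays alone 0, or 8 with the block. At stage 38 (0), the block within stage gave 1. For NICD against DBM at stage 18 (3), the block within stage gave 6, Benjamini-Yekutieli 0 and the arrays alone 0. At stage 38 (2), the filter on dim probe sets gave 1, with 10 of the 12 left, and Benjamini-Yekutieli and the arrays alone gave 0 each. The interaction of NICD between stages 18 and 28 (0) gave 1 with the block within stage and 1 with array weights. The replicate block over all stages gave 6, 7 and 0 for NICD at stages 18, 28 and 38, where 1.32%, 0.616% and 0.0889% of all probe sets were higher. Among the calls against GFP it changed tbxt.L at stage 18 alone (adjusted p = 0.0338). For NICD against DBM it gave 3, 9 and 2 (0.699%, 0.794% and 0.236% of all probe sets higher), where tbxt.L at stage 28 was added (adjusted p = 0.0176). Neither block changed any other call of the 12 probe sets than those given here and in the text above.

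Leaving out 1 array or number gave 0 to 6 calls for stage 18 NICD embryos, a range of 0 to 7 for those of stage 28 and of 0 to 1 for those of stage 38. At stage 28, removal of GFP replicate 1 left 4, that of GFP replicate 2 left 3, and that of NICD replicate 2 or 3 left 2 or 3. Without all arrays of number 2 or 3, 1 and 0 remained at stage 18 and 0 and 0 at stage 28. Without those of number 1, 6 were called at stage 18 and 7 at stage 28. At stage 38, 1 was called without NICD replicate 3. The range for NICD against DBM was 0 to 3, 1 to 8 and 0 to 2 at stages 18, 28 and 38, for GFP between stages 28 and 38 it was 10 to 11, and DBM against GFP stayed at 0. Such fits also hold fewer arrays, and the cause of these shifts was not tested. With 3 arrays per group, standard errors are imprecise, and most values of stage 38 lay below the array medians. A block within stage could not be fitted to the arrays of a stage comparison alone.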
